A study of Mus musculus with 87 samples.

Results

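The 6 Dlx genes of the mouse, Dlx1, Dlx2, Dlx3, Dlx4, Dlx5 and Dlx6, were followed through 64 RNA-seq libraries of embryonic day 11.5 (E11.5). The genes were taken by name, as 6 of the 43346 Ensembl genes in the deposited tables, with earlier results of these data known. The 7 mouse lines used here, named B2 to B8, each had 1 boundary between topologically associating domains deleted by CRISPR/Cas9 in the FVB strain. The study compared homozygous with wild-type littermate embryos from heterozygous crosses. Its further line, B1, has no RNA-seq library in the series. Each line descends from 1 founder for its locus, so that a line stands for 1 deletion allele. The libraries comprised 16 faces (2 homozygous and 2 wild-type in each of B3, B5, B6 and B7), 4 forebrains and 4 neural tubes (2 and 2, B8), 4 midbrains and 4 guts (2 and 2, B4), 20 hearts and 12 lungs (6 and 6, B2). The hearts were 4 homozygous and 4 wild-type of B2, 2 and 2 of B3 and of B5, and 2 homozygous each of B6 and B7. Together there were 34 homozygous and 30 wild-type libraries, none with any other treatment. None of the deleted boundaries lies on a chromosome that carries a Dlx gene.

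Dlx genes encode homeodomain transcription factors related to Distal-less of the fly, and in mammals they lie as linked pairs whose members are transcribed towards each other. In the pharyngeal arches, from which the jaws form, Dlx1 and Dlx2 are known to be active in upper and lower jaw mesenchyme, Dlx5 and Dlx6 mainly in the lower jaw downstream of endothelin signalling, and Dlx3 and Dlx4 near the distal tip. In the forebrain, Dlx1, Dlx2, Dlx5 and Dlx6 mark the ganglionic eminences, where inhibitory (GABAergic) neurons are born, whereas Dlx3 is better known from surface ectoderm, skin and teeth. On mm10, Dlx1 (chr2:71528113-71533981, forward strand) and Dlx2 (chr2:71543408-71546754, reverse strand) are 9.43 kb apart. Dlx6 (chr6:6863334-6868568, forward) and Dlx5 (chr6:6877805-6882085, reverse) are 9.24 kb apart, and Dlx3 (chr11:95120119-95125296, forward) and Dlx4 (chr11:95140447-95146263, reverse) are 15.2 kb apart. Each pair has noncoding RNA genes on the opposite strand of a member. Dlx1as overlaps Dlx1, Dlx6os1 (also known as Evf2) and Dlx6os2 overlap Dlx6, and Dlx4os overlaps the start of Dlx4. The strand setting of the counting is not given in the sources used here, so reads of a gene and of its antisense partner cannot be told apart.

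The promoters of Dlx1 and Dlx2 are shown because Dlx1 had the highest level of the 6 genes in both face and forebrain, and because the ratio of Dlx1 to Dlx2 is compared between tissues. Both windows come from RefSeq (GRCm38.p6), which gave 2 of the 6 genes in the table used, and run from 250 bases before to 50 bases after the annotated transcript start, 5′ to 3′ on the strand of the gene. The window of Dlx1 is chr2:71529195-71529494 (forward strand), and that of Dlx2 is chr2:71546705-71547004 (reverse strand). The Dlx1 window lies inside the gene span given above, so the RefSeq start used for it is downstream of the start of that span. Capitals mark matches, on either strand, of TAATTA (the core bound by many homeodomain proteins), of the promoter motif CCAAT, of the GC box GGGCGG or of CACGTG (an E-box, searched for after the sequences had been seen).
Dlx1: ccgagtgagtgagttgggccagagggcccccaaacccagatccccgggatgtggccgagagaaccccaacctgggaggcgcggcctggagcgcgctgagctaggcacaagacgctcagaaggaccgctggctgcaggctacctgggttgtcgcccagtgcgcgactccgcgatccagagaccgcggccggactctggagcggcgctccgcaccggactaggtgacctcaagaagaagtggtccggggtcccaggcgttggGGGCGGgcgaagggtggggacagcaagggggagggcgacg
Dlx2: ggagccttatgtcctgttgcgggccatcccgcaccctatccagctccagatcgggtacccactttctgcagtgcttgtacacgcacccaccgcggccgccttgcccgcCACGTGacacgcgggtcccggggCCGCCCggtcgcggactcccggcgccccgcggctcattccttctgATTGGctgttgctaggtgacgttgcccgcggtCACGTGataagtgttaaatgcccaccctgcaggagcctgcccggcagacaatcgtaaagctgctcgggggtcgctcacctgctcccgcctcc
The Dlx1 window had GGGCGG at position +11 and none of the other motifs. The Dlx2 window had CACGTG at -142 and at -42, GGGCGG at -119 and CCAAT at -74. TAATTA was found in neither. Of 32851 mouse promoter windows of the same length, 5.29% held TAATTA, 37.4% CCAAT, 35.7% GGGCGG and 7.15% CACGTG. The matches do not overlap one another, and G and C made up 69.3% of the Dlx1 window and 66.3% of the Dlx2 window, against a median of 52.7% over all windows.

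Libraries held 8391553 to 31793420 estimated counts, the fewest in a wild-type lung, and the next lowest total was 17075542. Levels of 1 gene across libraries are given in counts per 1000000 (CPM), after scaling of the library sizes. Defining markers were present in the labelled tissues that were checked. The lists of face mesenchyme (Prrx1, Prrx2, Twist1, Alx1, Msx1, Tfap2b) summed to 862.3 to 1296 CPM over the 16 faces, trunk Hox genes to 555.2 to 741.4 CPM over the 4 neural tubes, and cardiomyocyte genes to 9025 to 32690 CPM over the 20 hearts. The wild-type lung with the fewest counts, E5420-09, had a TMM scaling factor of 0.124, against 0.677 to 1.20 in the other libraries, so that its 5 counts of Dlx1 came to 4.82 CPM, and lung levels are therefore given in TPM, as deposited. A pair of homozygous libraries also stood apart. In the B5 heart A21, Prrx1 was at 232.4 CPM and Alx1 at 58.9 CPM, against 8.44 to 45.3 CPM and 0.157 to 13.1 CPM in the other hearts, and the cardiac gene Tnnt2 was at 841.7 CPM against at least 1278 CPM elsewhere. In the B4 midbrain A39, the forebrain gene Emx2 was at 29.3 CPM, against 7.19 to 10.7 CPM in the other 3 midbrains, and the midbrain gene En2 at 65.1 CPM against 120.3 to 213.2 CPM. Faces also held forebrain genes. Emx2 was at 11 to 19.4 CPM in faces and 53.6 to 82.3 CPM in forebrains, and Nkx2-1, a gene of the ventral forebrain, at 9.41 to 44.5 CPM in faces and 1.4 to 61.1 CPM in forebrains. Tissue contrasts below use wild-type libraries, which leaves both A21 and A39 out.

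Levels are compared between genes in transcripts per 1000000 (TPM), which corrects for transcript length, as deposited. In the 8 wild-type faces all 6 genes were expressed, and the genes summed to 191.9 ± 16.6 TPM (mean ± SD). Dlx1 was the highest, at 60.5 ± 8.47 TPM (lowest 49.0, median 59.5, highest 72.3). Dlx5 followed at 43.4 ± 3.7 TPM (36.7, 43.7 and 50.2), and its lowest library lay below the highest of Dlx2. Dlx2 reached 34.3 ± 6.3 TPM (26.9, 32.7 and 45.3). Dlx6 and Dlx3 were lower, at 27.5 TPM (20.7, 27.9 and 31.8 for the lowest, median and highest) and 24.2 TPM (19.2, 23.5 and 30.6). Dlx4 was at 2.06 TPM (1.54, 2.16 and 2.64), or 1.08% ± 0.22 of the summed Dlx level, whereas Dlx1 made up 31.4% ± 2.4 and Dlx5 22.7% ± 1.9.

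**Figure D1:**
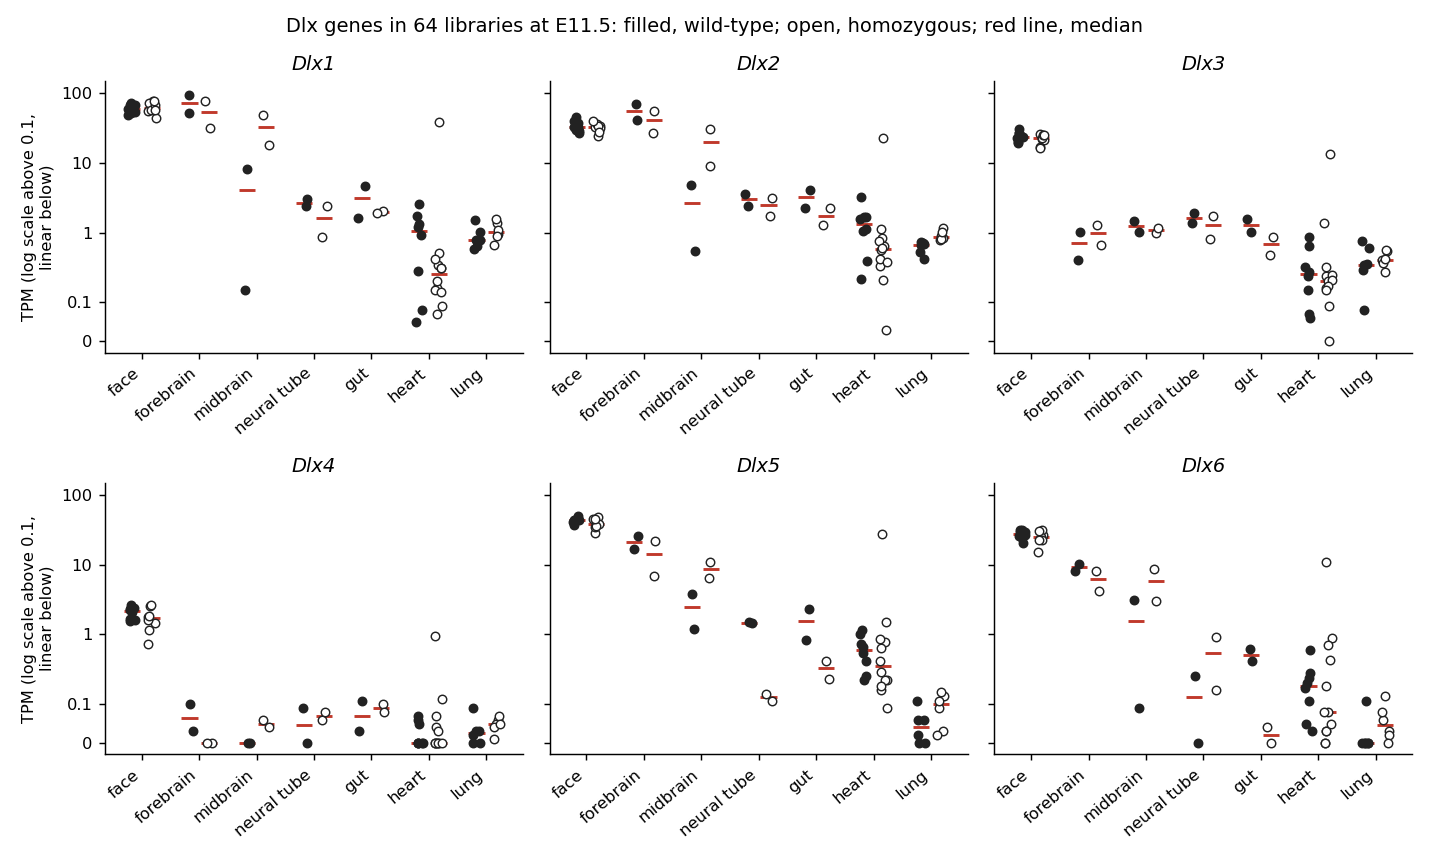
Level (TPM, log axis above 0.1 and linear below) of each Dlx gene in all 64 libraries by tissue; filled circles are wild-type, open circles homozygous, and red lines medians. Dlx1, Dlx2, Dlx3, Dlx5 and Dlx6 are high in the 16 faces, where Dlx4 is at 0.73 to 2.64 TPM. Dlx1, Dlx2, Dlx5 and Dlx6 are also high in the forebrain, and 1 homozygous heart (A21) lies far above the other hearts in every panel.

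In the wild-type forebrain the set of genes was narrower. Dlx1 was at 94.3 and 52.8 TPM in the forebrains A30 and A32, and Dlx2 at 70.9 and 41.7 TPM. Dlx5 was at 25.6 and 16.6 TPM, and Dlx6 at 10.1 and 8.25 TPM. A30 was the higher library for each of these 4 genes, and its Nkx2-1 level was 52.0 CPM against 1.4 CPM in A32, while Emx2 was at 65.9 and 82.3 CPM. The part of this difference in the Dlx values was not tested. Dlx3 was at 0.41 and 1.01 TPM, and Dlx4 at 0.10 and 0.03 TPM, 2 counts and 1 count. Dlx1 and Dlx2 made up 45.4% and 34.9% of the summed Dlx level, Dlx5 13.2%, Dlx6 5.94%, Dlx3 0.521% and Dlx4 0.0373% (means of 2 libraries).

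The remaining tissues held low levels. In the wild-type midbrain, Dlx1 was at 8.10 TPM in A38 and 0.15 TPM in A40, Dlx2 at 4.77 and 0.55 TPM, Dlx5 at 3.81 and 1.21 TPM, and Dlx6 at 3.07 and 0.09 TPM. The libraries A38 and A40 thus differed more in these genes than did any pair of faces, although En2 was at 166.1 and 213.2 CPM and Emx2 at 10.2 and 7.19 CPM in them. In the wild-type neural tube, Dlx1 was at 2.40 and 3.00 TPM, Dlx2 at 3.56 and 2.44 TPM, Dlx5 at 1.46 and 1.5 TPM, and Dlx6 at 0.25 and 0 TPM, which was 1 count and 0 counts. In the 2 wild-type guts Dlx1 and Dlx2 reached 1.65 to 4.63 TPM. Medians over the 8 wild-type hearts were 1.08 TPM for Dlx1 and 1.34 TPM for Dlx2, and over the 6 wild-type lungs 0.78 and 0.67 TPM (0.78 and 0.68 TPM without E5420-09). Dlx5 had a median of 0.60 TPM in heart and 0.04 TPM in lung.

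The order of tissues, by the median of wild-type libraries, depended on the gene. Forebrain came first and face second for Dlx1 and Dlx2, with overlapping libraries, and the third tissue lay apart from the face (midbrain, at most 8.10 TPM, for Dlx1, and gut, at most 4.12 TPM, for Dlx2). Face came first and forebrain second for Dlx5 and Dlx6, and here the neighbouring ranges did not overlap (Dlx5 36.7 to 50.2 against 16.6 to 25.6 TPM, Dlx6 20.7 to 31.8 against 8.25 to 10.1 TPM). For Dlx3 and Dlx4 the face lay apart from all other tissues, and the next were neural tube (1.36 to 1.94 TPM of Dlx3) and gut (0.03 to 0.11 TPM of Dlx4). Below that rank most neighbours overlapped.

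Face and forebrain were compared in 1 model over all 30 wild-type libraries, with edgeR's quasi-likelihood test and Benjamini-Hochberg adjustment over all genes. A gene is called at an adjusted p under 0.05. Of the 6 genes, 3 were called, all higher in the face, against 18.5% of all genes called (3298 of 17784). Dlx3 was 36.2 CPM in face and 0.976 CPM in forebrain (log2 fold change 5.198 ± 0.64 SE, edgeR adjusted p = 7.19e-07). Dlx6 was 13.4 and 4.32 CPM (1.63 ± 0.56, adjusted p = 0.0399). Dlx4 had 473 counts over the 8 faces and 3 counts over the 2 forebrains, a ratio of 40.8 with a 95% counting interval of 13.9 to 198.5 (edgeR adjusted p = 5.68e-05). Dlx5, at 32.4 and 14.1 CPM, missed the threshold (1.19 ± 0.44, edgeR adjusted p = 0.0580, 0.0198 with DESeq2). Dlx1 (-0.10, 95% interval -1.46 to 1.27) and Dlx2 (-0.58, -1.57 to 0.41) were not called. Leaving out any of 9 of the 10 face and forebrain libraries ended the call of Dlx6, with an edgeR adjusted p between 0.0508 and 0.4001, the highest without the forebrain A32. Leaving out 1 library of another tissue, such as the heart A16 (edgeR adjusted p = 0.0324), took Dlx5 past the threshold in 9 cases. In whole tissue, fewer expressing cells and less RNA per cell cannot be told apart. Face libraries came from 4 lines and forebrains from B8 alone, so tissue and line cannot be told apart here.

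Noncoding and coding neighbours of the pairs were read from the same contrast. Dlx6os1 was at 25.97 CPM in face and 39.2 CPM in forebrain (log2 fold change -0.60 ± 0.60, edgeR adjusted p = 0.571), while Dlx6, which it overlaps, was called higher in the face. Dlx1as was at 4.30 and 4.57 CPM (-0.09 ± 0.57, edgeR adjusted p = 0.949). Dlx4os was at 3.90 CPM in face and 0.0378 CPM in forebrain, where it had 2 counts, and was called (edgeR adjusted p = 5.80e-06). Dlx6os2 had at most 0.147 CPM in any face. Among the nearest coding genes outside each pair, Sem1 beside Dlx6 (0.91 ± 0.21, edgeR adjusted p = 0.00194) and Itga3 beside Dlx3 (0.98 ± 0.30, adjusted p = 0.0188) were called higher in the face. Metap1d and Itga6 beside the pair Dlx1 and Dlx2, and Sdhaf3 beside Dlx5, were not (log2 fold changes -0.08, -0.51 and 0.04). Tac4, the neighbour of Dlx4, was not tested because its counts were too low.

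Along the neural axis Dlx1, Dlx2, Dlx5 and Dlx6 were all higher in the forebrain than further back. Forebrains came from B8 and midbrains from B4, so tissue and line cannot be told apart between them either. Between forebrain and midbrain 4 of 6 genes were called, all higher in forebrain, against 3.3% of all genes called. Dlx2 was 71.2 CPM in forebrain and 3.12 CPM in midbrain (log2 fold change 4.52 ± 0.75, edgeR adjusted p = 0.000278), and Dlx5 was 14.1 and 1.52 CPM (3.22 ± 0.58, adjusted p = 0.000715). Dlx1 was 75.9 and 5.53 CPM (3.78 ± 0.96) and Dlx6 was 4.32 and 0.598 CPM (2.88 ± 0.73), each at an adjusted p of 0.0208 with edgeR. These calls leaned on few libraries. Without the midbrain A40 only Dlx2 was called, without the forebrain A30 Dlx1 and Dlx6 were lost, and without A32 Dlx1 was lost. With the homozygous libraries added, among them A39, no gene was called. Dlx3 did not differ (-0.66, 95% interval -1.96 to 0.64), at 0.976 and 1.55 CPM.

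Between forebrain and neural tube, both of line B8, 4 of 6 genes were called higher in forebrain, against 10.1% of all genes. Dlx1 was 75.9 and 3.39 CPM (log2 fold change 4.48 ± 1.00, edgeR adjusted p = 0.00278), Dlx2 was 71.2 and 3.73 CPM (4.25 ± 0.74, adjusted p = 0.000172) and Dlx5 was 14.1 and 0.977 CPM (3.84 ± 0.60, adjusted p = 4.87e-05). Dlx6 had 222 counts in the forebrains and 1 count in the neural tubes, a ratio of 183.8 with a counting interval of 32.7 to 7292 (edgeR adjusted p = 3.83e-05). Dlx6os1 was at 39.2 CPM in forebrain and had 0 counts in the wild-type neural tubes. Midbrain (B4) and neural tube (B8) also differ in line, which cannot be told apart from tissue. Between midbrain and neural tube 1 of 6 genes was called, against 9.9% of all genes. This was Dlx6, with 26 counts in midbrain, 25 of them in A38, and 1 in neural tube, a ratio of 23.2 with an interval of 3.81 to 951.9 (edgeR adjusted p = 0.0282). Dlx6os1 was called too, with 58 counts in A38 and 0 in A40 and in both neural tubes (edgeR adjusted p = 0.0153). The call of Dlx6 was lost when A38, A34 or A36 was left out, and without A38 the adjusted p was 1.0.

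**Figure D2:**
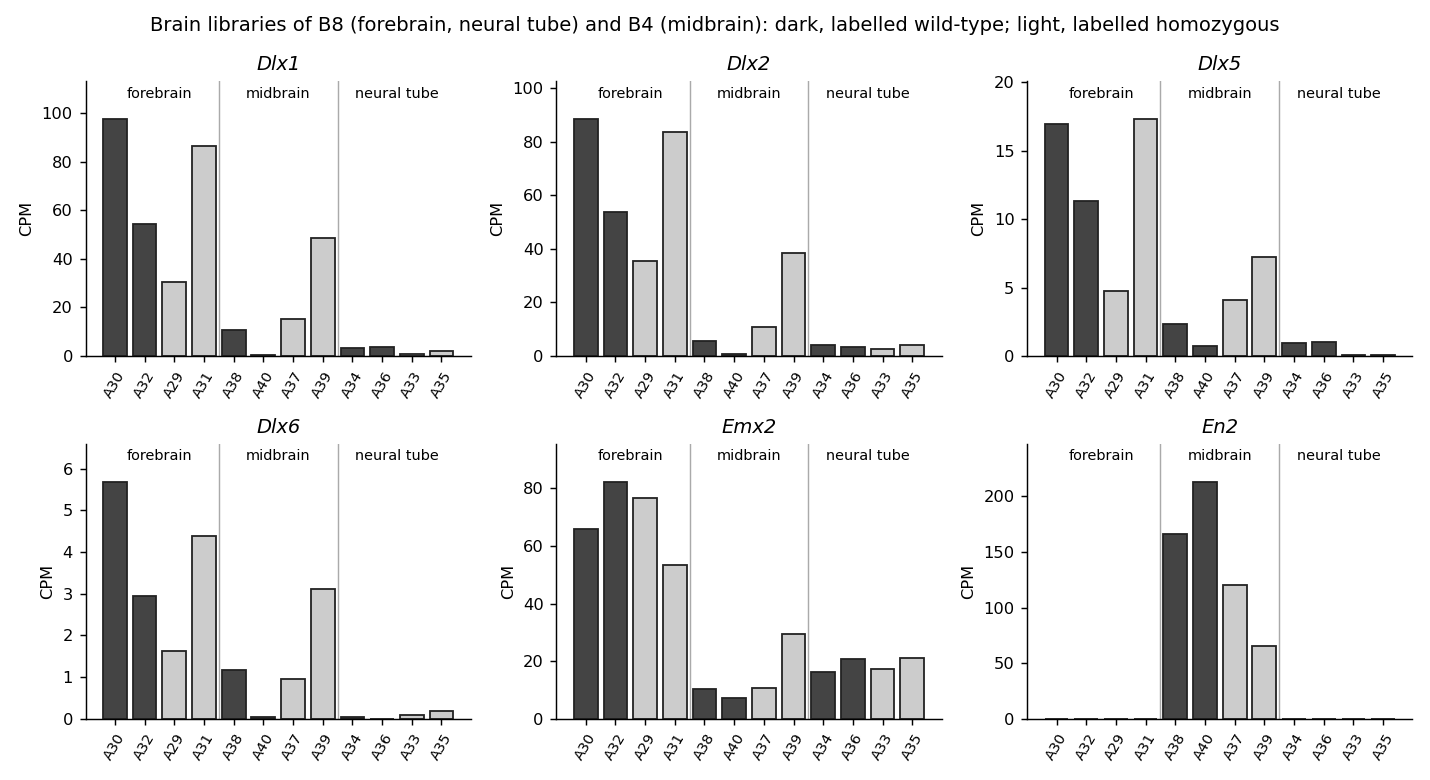
CPM of Dlx1, Dlx2, Dlx5 and Dlx6 and of the forebrain gene Emx2 and the midbrain gene En2 in each brain library; dark bars are labelled wild-type and light bars labelled homozygous. Dlx1 spans 30.6 to 97.5 CPM in the forebrains and 0.303 to 48.7 CPM in the midbrains, and the homozygous midbrain A39 has the highest Emx2 (29.3 CPM) and the lowest En2 (65.1 CPM) of the midbrains.

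Against the heart all 6 genes were called higher in the face, where 60.5% of all genes were called in one direction or the other. Log2 fold changes were 4.95 for Dlx1, 4.09 for Dlx2, 5.59 for Dlx3, 5.41 for Dlx5 and 5.97 for Dlx6, with edgeR adjusted p-values of 3.07e-09 or less. Dlx4 had 473 counts in the 8 faces and 7 counts in the 8 hearts, a ratio of 51.7 with a counting interval of 24.9 to 129.3. All 6 calls were kept when any wild-type library was left out. The wild-type hearts with the highest Dlx1, B3 A16 at 6.10 CPM and B5 A23 at 3.72 CPM, also had the highest Alx1, a gene of head mesenchyme, at 4.04 and 5.12 CPM, and the other 6 had at most 2.11 CPM. The part of such transcripts in the heart values was not tested.

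Genes known to act in the same programmes as the Dlx genes were counted from lists. These were made with earlier results of these data known. Of 14 genes of lower jaw patterning, 8 were called higher in face than in forebrain and 0 lower, with a median log2 fold change of 1.43, against 0.00 over all genes. Among them were Hand2, a target of Dlx5 and Dlx6 in the lower jaw, at 56.2 CPM in face and 0.0197 CPM in forebrain, and Pitx1, at 90 and 0.0189 CPM, each with 1 count in the forebrains. Barx1 (99.4 and 0.0979 CPM) and Hand1 (5.63 and 0.0197 CPM) were called as well. Of 7 upper jaw genes 3 were higher in the face (among them Irx5 by 1.99 and Foxl2 by 1.65 on the log2 scale) and 1 was lower (Pou3f3, -1.75), with a median of 0.18. Of 19 genes of the ganglionic eminences and GABAergic neurons, 1 was called higher and 8 lower in the face, with a median of -0.80. The homeobox gene Gsx2 (2.03 CPM in face and 17.4 CPM in forebrain) and the zinc finger gene Sp8 (9.96 and 48.6 CPM) were among these, and the GABA-synthesising enzyme gene Gad2 (5.79 and 24.2 CPM) was another.

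The markers of neighbouring cell types moved as well. Of 11 genes of the dorsal telencephalon, the part of the forebrain that lacks Dlx expression, 9 were called lower in the face and 0 higher, with a median log2 fold change of -3.44, and Emx1 was at 0.904 CPM in face and 56.6 CPM in forebrain. All 11 had a median of at least 1 CPM in the forebrains, where they summed to 1064 to 1380 CPM, and they summed to 176.0 to 258.6 CPM in the faces. Of 16 genes of surface ectoderm, 14 were called higher in the face and 0 lower (median 2.47), among them Krt14 (18.9 and 1.22 CPM) and Cldn6 (41.3 and 3.21 CPM). Surface ectoderm genes summed to 352.4 to 674.4 CPM in faces and 58.9 to 102.9 CPM in forebrains. The part of these cell types in the Dlx differences, and in particular of surface ectoderm in that of Dlx3, was not tested. Putting genes with at most 3 counts in a group at 3 counts changed none of these medians.

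In the other contrasts, 4 of the 19 genes of the ganglionic list were called higher and 1 lower in forebrain than in midbrain (median 0.91). Gsx2 (17.4 ± 3.63 SD and 0.139 CPM) and Lhx8 (8.62 ± 11.7 SD and 0.141 CPM) were among the higher ones, and the 2 forebrains differed widely in Lhx8. Against the neural tube 8 were higher and 1 lower (median 1.34), and Nkx2-1, at 26.7 ± 35.8 CPM (mean ± SD) over the 2 forebrains, had 0 counts in the wild-type neural tubes. Lower jaw genes had 0 calls between forebrain and midbrain, but 7 of 14 were lower in forebrain than in neural tube and 6 lower in midbrain than in neural tube, where Hand2 reached 13.7 CPM. Of the upper jaw list 1 was lower in forebrain than in midbrain (Irx5, -2.78), and 3 were higher and 1 lower in forebrain than in neural tube. Dorsal telencephalic genes were called higher in forebrain than in midbrain (6 of 11) and than in neural tube (8 of 11), and of the surface ectoderm list 4 of 16 were lower and 0 higher in forebrain than in neural tube. Between midbrain and neural tube the counts higher and lower in midbrain were 3 and 2 of the ganglionic, 2 and 1 of the upper jaw, 4 and 0 of the dorsal telencephalic and 0 and 3 of the surface ectoderm list. Between face and heart they were 5 and 8 of the lower jaw, 5 and 1 of the upper jaw, 17 and 0 of the ganglionic, 10 and 0 of the dorsal telencephalic and 11 and 3 of the surface ectoderm genes higher and lower in face.

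Members of a pair were then set against each other, as the log2 ratio of their TPM in libraries with at least 10 counts of both. Dlx1 exceeded Dlx2 in all 16 faces and all 4 forebrains. The ratio of Dlx1 to Dlx2 was 1.52 to 2.08 in the 8 wild-type faces (mean log2 ratio 0.83 ± 0.16) and 1.33 and 1.27 in the forebrains A30 and A32 (0.38 ± 0.05), and the ranges did not overlap. The difference of 0.45 had a two-sided exact permutation p = 0.0444, the smallest that 8 against 2 libraries allow, and an adjusted p of 0.0667 over the 6 comparisons made. With both genotypes (16 faces and 4 forebrains) the difference was 0.54 (permutation test, adjusted p = 0.000743). In the wild-type hearts Dlx1 was below Dlx2 in 5 of 6 libraries (mean log2 ratio -0.52 ± 0.89), a difference from the face of 1.35 (exact permutation p = 0.00266, adjusted 0.016), and 1.155 over the 2 hearts with at least 50 counts of both genes (adjusted p = 0.0667). Computed from CPM, without a length correction, the difference over the 6 hearts was 0.976 (permutation test, adjusted p = 0.036). The wild-type neural tubes and guts had mean log2 ratios of -0.14 ± 0.61 and -0.16 ± 0.46 (n = 2 each), with the same exact permutation p = 0.0444 and adjusted p = 0.0667 each against the face. In the lungs the ratio was 0.52 ± 0.41 (n = 5, difference 0.30, exact permutation p = 0.0932, adjusted 0.0932).

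Dlx6 lay below Dlx5 in all 16 faces and all 4 forebrains. The ratio of Dlx6 to Dlx5 was 0.468 to 0.865 in wild-type faces (mean log2 ratio -0.67 ± 0.27) and 0.396 and 0.498 in the forebrains A30 and A32 (-1.17 ± 0.23). These ranges overlapped, and the difference of 0.50 had an exact permutation p = 0.0889 (adjusted 0.0932), and 0.45 with both genotypes (adjusted p = 0.0161). The ratio of Dlx4 to Dlx3 was 0.073 to 0.0941 in wild-type faces, and no other wild-type library had 10 counts of both genes. The transcript length that RSEM assigned to Dlx1, which enters its TPM, was 1869 to 2332 bases in faces and 1887 to 2061 bases in forebrains, that of Dlx2 2405 to 2464 and 2433 to 2465 bases. In libraries with at least 10 counts of Dlx1, its length varied more, from 1804 to 3761 bases in hearts and from 1408 to 3977 bases in lungs. Computed from CPM, without a length correction, the difference of the pair Dlx1 and Dlx2 between face and forebrain was 0.51 (adjusted p = 0.0533).

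**Figure D3:**
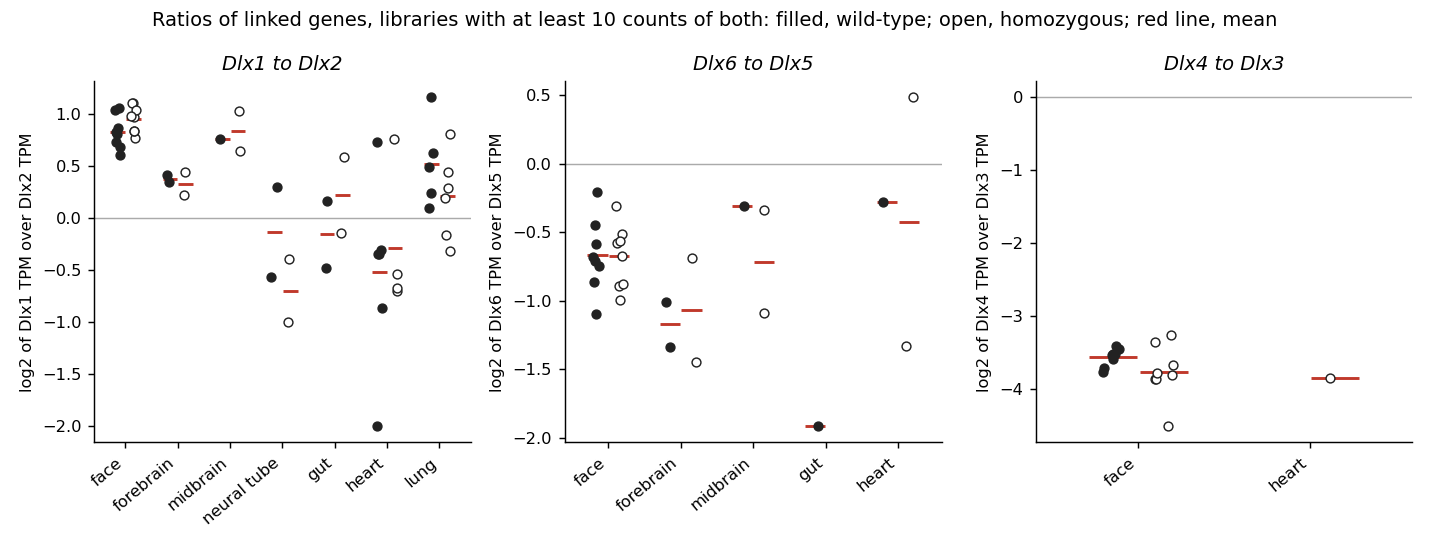
Log2 ratio of the TPM of linked genes in each library with at least 10 counts of both, by tissue; filled circles are wild-type, open circles homozygous, and red lines means. The Dlx1 to Dlx2 ratios of the faces, 0.60 to 1.06 on the log2 scale in wild-type, lie above those of the wild-type forebrains (0.34 and 0.41).

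Among the 16 faces, Dlx3 varied together with Dlx4 and Dlx1 with Dlx2, while the linked Dlx5 and Dlx6 passed the test within lines but not over all faces. Coefficients of variation were 12.3% for Dlx5, 13.2% for Dlx3, 16.1% for Dlx1, 16.5% for Dlx2, 17.4% for Dlx6 and 27.7% for Dlx4, against 10.8% for the mesenchymal gene Prrx1 and 37.0% for Nkx2-1. Correlations of log2 CPM were computed for the 15 pairs of genes, with permutation tests and adjustment over these. Dlx3 and Dlx4 had r = 0.883 (permutation test, adjusted p = 0.00015) and rho = 0.832 (adjusted 0.002). Without the 2 faces farthest from the median of Dlx3, r was 0.844 (permutation, adjusted p = 0.002). Dlx1 and Dlx2 had r = 0.812 (permutation test, adjusted p = 0.001) and rho = 0.768 (adjusted 0.006), and r = 0.656 (adjusted 0.07) without the 2 farthest faces, so that this relation rests in part on those samples. Dlx1 and Dlx6 had r = 0.709 (permutation, adjusted p = 0.01) and rho = 0.706, and r = 0.614 (adjusted 0.071) without the 2 farthest. Dlx5 and Dlx6 did not pass (r = 0.571, permutation adjusted p = 0.069, rho = 0.379), and Dlx1 and Dlx2 had r of -0.168 to 0.054 with Dlx3 and Dlx4. Within lines, after the line mean had been subtracted, 5 pairs passed, with r = 0.886 for Dlx3 and Dlx4, 0.847 for Dlx1 and Dlx2, 0.717 for Dlx1 and Dlx6, 0.63 for Dlx1 and Dlx5 and 0.597 for Dlx5 and Dlx6.

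The ventral forebrain gene Nkx2-1 and the lower jaw gene Hand2 were set beside these values after the data had been seen, in 12 correlations. Dlx2 followed Nkx2-1 over the 16 faces (r = 0.916, permutation test, adjusted p = 0.00012, rho = 0.871, r = 0.856 without the 2 farthest faces and 0.942 within lines). For Dlx1 and Nkx2-1 the values were lower (r = 0.759, permutation adjusted p = 0.005, rho = 0.576, adjusted 0.078). Within lines r was 0.81 (permutation adjusted p = 0.001). Without the 2 farthest faces r was 0.49 (adjusted 0.365), so that this relation rests in part on those samples. The faces with the lowest Nkx2-1, B6 wild-type A28 at 9.41 CPM, B7 homozygous A3 at 10.96 CPM and B5 homozygous A17 at 14.3 CPM, had the 3 lowest Dlx2 levels, 34.4, 34.4 and 36.2 CPM. Dlx3, Dlx4, Dlx5 and Dlx6 did not pass with Nkx2-1 (r from -0.332 to 0.404), and no member passed with Hand2 (r from 0.215 to 0.601, smallest permutation adjusted p = 0.056). The share of Dlx1 and Dlx2 reads in a face library that came from attached forebrain was not tested.

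**Figure D4:**
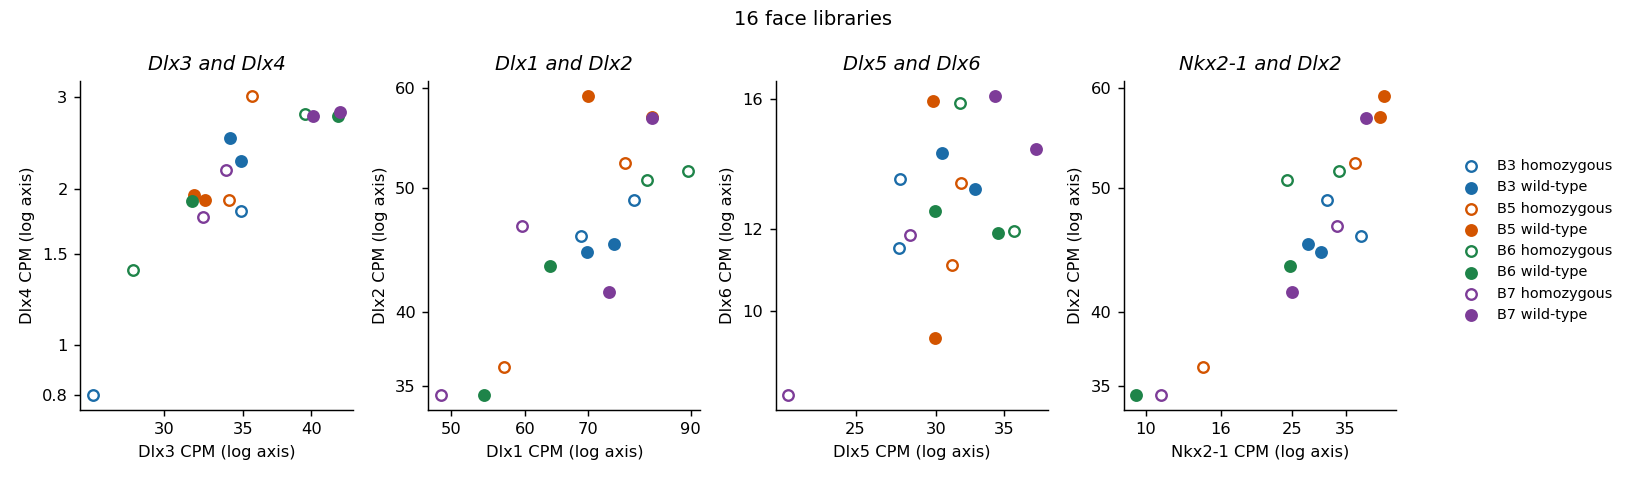
Each point is 1 of the 16 face libraries (CPM on log axes), coloured by line, filled for wild-type and open for homozygous; B5 wild-type A19 and B7 wild-type A26 nearly coincide in the panel of Dlx1 and Dlx2. Dlx3 and Dlx4 rise together (r = 0.883), and Dlx2 rises with Nkx2-1 (r = 0.916).

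Over all 30 wild-type libraries each gene was most like another Dlx gene, with the exception of Dlx4. The values are Pearson's r of log2(CPM + 0.5) across tissues, given as a description, and libraries of 1 tissue share much of their pattern. The lung E5420-09, with its TMM scaling factor of 0.124, is among the 30 libraries, and its part in these values was not tested. Dlx1 and Dlx2 had r = 0.982, Dlx5 and Dlx6 0.981, and Dlx3 and Dlx4 0.971, whereas r between pairs ran from 0.759 for Dlx2 and Dlx3 to 0.925 for Dlx1 and Dlx6. After its partner, Dlx1 was most like Dlx6os1 (0.943), Dlx1as (0.941), Dlx6 (0.925) and Tfap2c (0.921). The list of Dlx2 held Dlx6os1 (0.956), Dlx1as (0.947), Vax1 (0.936), a homeobox gene of the ventral forebrain and eye, and Tfap2c (0.932). Dlx5 and Dlx6 shared Dlx6os1 (0.964 and 0.967), Vax1 (0.955 and 0.96) and Dlx1as (0.954 and 0.959), and the fifth gene was Foxl2 for Dlx5 (0.951) and Lhx8 for Dlx6 (0.958). Genes most like Dlx3 and Dlx4 were 3110099E03Rik (0.967 and 0.989), Cyp26c1, which breaks down retinoic acid (0.957 and 0.988), and Six6, an eye and pituitary gene (0.956 and 0.981). Dkk4 (0.957) completed the list of Dlx3, and Otol1 (0.987) and Oc90 (0.981), which encode proteins of the inner ear otoconia, that of Dlx4.

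Homozygous and wild-type tissue was compared in each line with edgeR's quasi-likelihood test, to see whether the Dlx genes differed where a boundary on another chromosome was lost. Over 14 comparisons, 62 tests of Dlx genes passed the filter on low counts. None was called (smallest adjusted p = 0.307), 15 had an unadjusted p under 0.05, and DESeq2 called 2, Dlx1 in the B3 heart and in the B7 face. Over all genes the share with an unadjusted edgeR p under 0.05 was 0.748% (B5 heart) to 16.9% (B6 heart), and DESeq2 called 94 genes in the B3 heart and 91 in the B7 face. Of the 62 log2 fold changes 21 were above and 41 below 0. Over all genes 0.0% were called in B2 heart, B2 lung, B3 heart, B4 gut, B5 face, B5 heart, B8 forebrain, B6 heart and B7 heart. In B3 face 0.0131% were called, in B6 face 0.0723%, in B7 face 0.0329%, in B4 midbrain 0.00677% and in B8 neural tube 0.0132%. The genes of the 5 lists had 0 calls in these 14 comparisons as well. By Xist and the Y-linked gene Ddx3y, the sexes were unevenly spread over genotypes in B3, B4 and B8 (in B3 faces, Ddx3y was at 42.6 CPM in homozygous A11 and at 0 CPM in the other 3), and sex was not in these fits.

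In the faces, log2 fold changes of the 6 genes ran from -0.89 to 0.07 in B3, from -0.36 to 0.39 in B5, from -0.19 to 0.51 in B6 and from -0.61 to -0.29 in B7. Dlx1 in B7 was at 59.6 and 48.8 CPM in the homozygous faces A1 and A3 and at 73.7 and 81.9 CPM in the wild-type faces (log2 fold change -0.53 ± 0.12, unadjusted p = 0.00257, edgeR adjusted p = 0.371, 0.0296 with DESeq2). Dlx5 was at 28.3 and 21.5 CPM against 34.2 and 37.6 CPM (-0.54 ± 0.15), Dlx6 at 11.8 and 8.31 CPM against 16.1 and 14.3 CPM (-0.61 ± 0.20), and Dlx3 at 33.9 and 32.3 CPM against 42.3 and 40.1 CPM (-0.33 ± 0.10), with unadjusted p-values of 0.00806, 0.0155 and 0.0113. A3 was the lowest of the 16 faces for Dlx1, Dlx5 and Dlx6, and 7.55% of all genes had an unadjusted p under 0.05 in this comparison. Nkx2-1 was at 33.1 CPM in A1 and 10.96 CPM in A3, against 25.02 and 39.8 CPM in the wild-type faces. Without A1, that is with A3 alone and assumed to vary as the wild-type faces do, Dlx1, Dlx2, Dlx5 and Dlx6 were called, as were 262 of all genes (1.66%). Without A3, with A1 alone, no Dlx gene was called and 634 of all genes were. Dlx6os1, at 21.5 and 13.6 CPM against 22.2 and 29.3 CPM, had a log2 fold change of -0.57 (unadjusted p = 0.0412, edgeR adjusted p = 0.641).

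In B6 the homozygous faces had the higher values of Dlx1, and whether this differed from B7 was not tested. Dlx1 was at 80.9 and 89.5 CPM in the homozygous faces and 63.8 and 54.3 CPM in the wild-type faces (0.51 ± 0.13, unadjusted p = 0.00525, edgeR adjusted p = 0.336). Dlx2 was at 50.8 and 51.6 CPM against 43.4 and 34.4 CPM (0.38 ± 0.14, unadjusted p = 0.0284, edgeR adjusted p = 0.522). Nkx2-1 was at 24.2 and 33.6 CPM against 24.6 and 9.41 CPM in the same libraries. The share of all genes with an unadjusted p under 0.05 was 8.65% in B6. In B3, Dlx5 was at 27.7 and 27.6 CPM against 30.4 and 32.8 CPM (-0.20 ± 0.08, unadjusted p = 0.0454, edgeR adjusted p = 0.520), and in B5 no Dlx gene had an unadjusted p under 0.05. Dlx6os1 in B5 had a log2 fold change of -0.39 ± 0.13 (unadjusted p = 0.0229, edgeR adjusted p = 0.999). Wild-type faces of the 4 lines differed in 1 of 15661 genes (0.00639%) with edgeR, which was no Dlx gene. DESeq2 called 263 genes there, and 0 of them were Dlx genes. The lowest unadjusted p-values of the 6 were 0.0390 for Dlx2 and 0.0412 for Dlx1 (edgeR F test, adjusted p = 0.546 and 0.548).

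**Figure D5:**
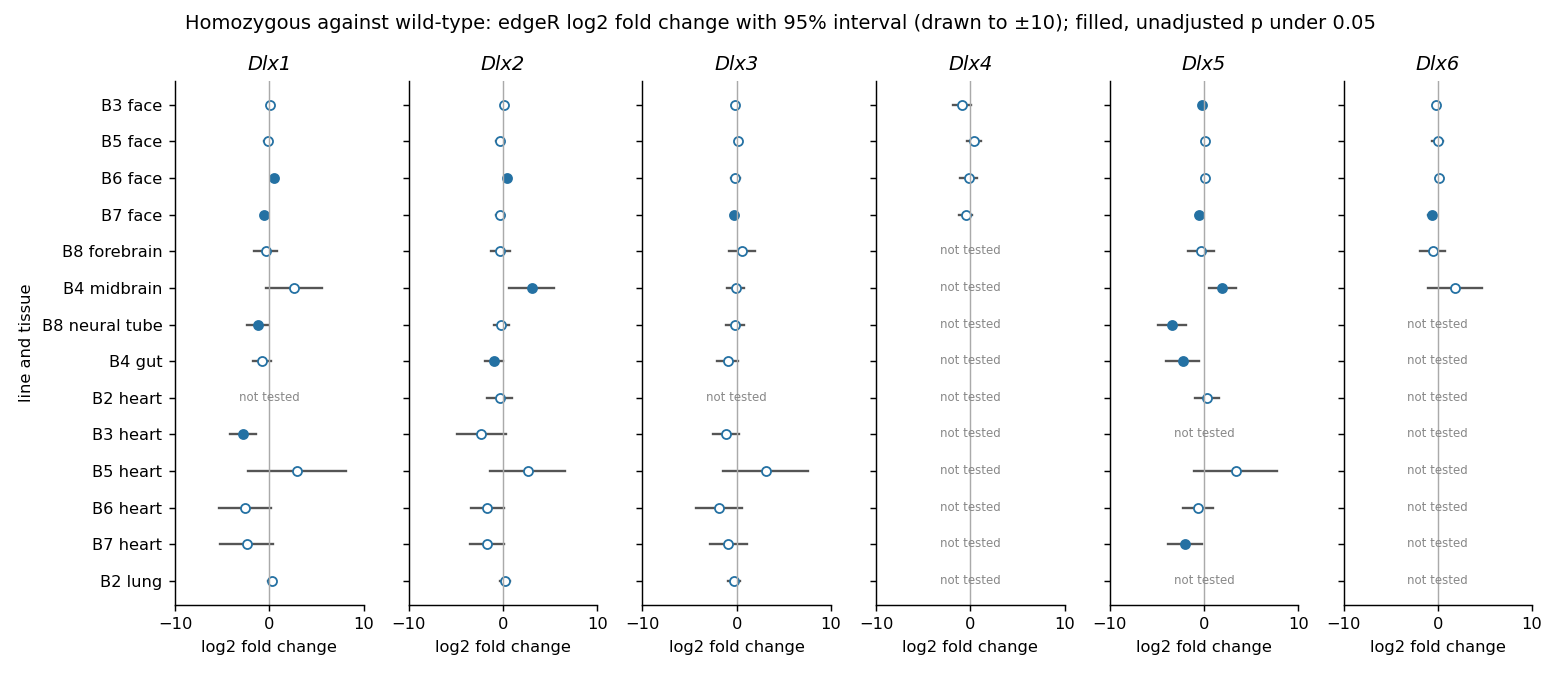
Log2 fold change (edgeR) of each Dlx gene, homozygous against wild-type, with its 95% interval, in 14 combinations of line and tissue; filled circles have an unadjusted p under 0.05, and genes below the filter on low counts are marked as not tested. Intervals are narrow in the faces (log2 fold changes from -0.89 to 0.51) and wide in midbrain and hearts.

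In the B8 forebrain no Dlx gene had an unadjusted p under 0.05. Dlx1 was at 30.6 CPM in A29 and 86.4 CPM in A31, both labelled homozygous, and at 97.5 and 54.3 CPM in A30 and A32, labelled wild-type (log2 fold change -0.39 ± 0.50, 95% interval -1.60 to 0.83), so that the groups overlapped. Dlx2, Dlx5 and Dlx6 were likewise lowest in A29, where Dlx5 was at 4.74 CPM against 11.3 to 17.3 CPM. In the B8 neural tube Dlx5 had 2 counts in each homozygous library and 19 and 23 counts in the wild-type libraries (log2 fold change -3.40 ± 0.67, unadjusted p = 0.000648, edgeR adjusted p = 0.4002). Dlx1 was at 0.682 and 2.23 CPM against 3.10 and 3.69 CPM (-1.25 ± 0.50, unadjusted p = 0.0337, edgeR adjusted p = 0.482). In this comparison 10.0% of all genes had an unadjusted p under 0.05. Both were called when the homozygous A35 was left out, which leaves A33 alone and assumed to vary as the wild-type libraries do, and 1016 of all genes (6.48%) were then called. A model of both B8 tissues found a genotype difference that itself differed between forebrain and neural tube for 0 of 5 Dlx genes tested and 0.0% of all genes (edgeR). DESeq2 called 5 genes, and 539 of 15896 had an unadjusted p under 0.05 with edgeR, Dlx5 among them (unadjusted p = 0.0285, edgeR adjusted p = 1.0).

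In the B4 midbrain the homozygous libraries had the higher values of Dlx1, Dlx2 and Dlx5, without a call. Dlx2 was at 10.9 and 38.4 CPM in A37 and A39 and at 5.61 and 0.643 CPM in the wild-type A38 and A40 (3.03 ± 0.98, unadjusted p = 0.0226, edgeR adjusted p = 0.668), and Dlx5 at 4.06 and 7.25 CPM against 2.32 and 0.719 CPM (1.93 ± 0.58, unadjusted p = 0.0172, edgeR adjusted p = 0.668). Dlx1 was at 15.1 and 48.7 CPM against 10.8 and 0.303 CPM (2.58, unadjusted p = 0.0780, edgeR adjusted p = 0.671). Dlx1as had 14 and 81 counts against 2 and 0 counts (unadjusted p = 0.00746, edgeR adjusted p = 0.668, 0.0437 with DESeq2). A39 is the library with Emx2 at 29.3 CPM, and the forebrain gene Six3 was at 18.2 CPM in it, against 9.16 to 12.7 CPM in the other midbrains. Without A39, the log2 fold change of Dlx2 was 1.84, that of Dlx5 was 1.45 and that of Dlx1 was 1.5, and the edgeR adjusted p was 0.970 for each of them and for Dlx1as. In the B4 gut Dlx2 was at 2.74 and 1.73 CPM against 5.84 and 2.97 CPM (-0.97 ± 0.41, unadjusted p = 0.0477, edgeR adjusted p = 0.708), and Dlx5 had 7 and 3 counts against 37 and 15 counts (-2.28 ± 0.77, unadjusted p = 0.0191, edgeR adjusted p = 0.583).

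Hearts and lungs held few Dlx counts. Dlx1 in the B3 heart was at 0.524 and 0.706 CPM against 2.62 and 6.10 CPM (-2.82 ± 0.55, unadjusted p = 0.00278, edgeR adjusted p = 0.524, 0.00785 with DESeq2), and Alx1 was at 0.157 and 0.303 CPM against 1.96 and 4.04 CPM. In the B5 heart, A21 held 46.2 CPM of Dlx1, 32.7 of Dlx2, 21.5 of Dlx3, 21.6 of Dlx5 and 6.57 of Dlx6, and the other homozygous heart, A22, held 0.241, 1.01, 0.531, 0.531 and 0 CPM. The 4 genes tested there had log2 fold changes of 2.64 to 3.37 and unadjusted p-values of at least 0.104. Without A22, that is with A21 alone against the wild-type hearts and assumed to vary as they do, 5 genes were called. In that fit 918 of all genes (5.74%) were called. Without A21 the direction turned. With A22 alone, the log2 fold changes were -3.59 for Dlx1, -1.42 for Dlx2, -1.31 for Dlx3 and -1.01 for Dlx5, with no call (smallest edgeR adjusted p = 0.254). A21 also held both Xist (141.6 CPM) and the Y-linked Ddx3y (21.9 CPM), and 1 other heart, the wild-type B2 A59, held both above 1 CPM (8.56 CPM of Xist and 34.2 CPM of Ddx3y). Homozygous hearts of B6 and B7 had no wild-type hearts of their own lines among the libraries used here, and the 8 from the other lines served instead, so that a line effect and an effect of the deletion cannot be told apart in them. Dlx5 in B7 was at 0.246 and 0.113 CPM against 0.755 CPM on average (-2.05 ± 0.82, unadjusted p = 0.0299, edgeR adjusted p = 0.506). In the B2 heart and the B2 lung, log2 fold changes of the genes tested ran from -0.36 to 0.33 and from -0.27 to 0.26. Without the lung E5420-09 those of the B2 lung were 0.31 for Dlx1, 0.34 for Dlx2 and -0.31 for Dlx3 (edgeR adjusted p = 0.827 each).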

How the data were processed

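The labels gave the line, tissue and genotype of each of 64 RNA-seq libraries. RNA had been isolated with a column kit (RNeasy), and reads were mapped to mm10 with STAR and quantified with RSEM over GENCODE genes in the ENCODE long RNA-seq pipeline. The authors deposited, for each library, expected counts that were not normalized, and TPM, which corrects for transcript length. RSEM's gene length, deposited beside them, was read for the Dlx genes. Gene names and positions were matched for 42462 of 43346 Ensembl genes. Other entries took at most 2.19e-05% of counts. The 23 Hi-C samples of the series were not used here.

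The Dlx genes, gene lists and tests were chosen with earlier results of these data known. Expected counts were rounded, filtered with filterByExpr, given TMM library scaling and put through the quasi-likelihood test of edgeR 4.0.16 in R 4.3.3 (glmQLFit, glmQLFTest). P-values were adjusted over all genes tested (Benjamini-Hochberg) and called at 0.05, and the fit was first tested on simulated data. CPM uses TMM over all 64 libraries. The 14 genotype comparisons used only the groups compared, and 5 tissue contrasts came from 1 fit of the wild-type libraries. DESeq2 1.42.0, RLE scaling, no filter, a joint fit and leaving out each library were alternatives. Genes named are the 6 Dlx genes, their antisense and flanking genes, up to 4 called genes of each list by size of change, and the 5 genes most like each Dlx gene, and some genes that this rule selects are not reported here. Intervals of log2 fold changes are at 95%, and intervals of count ratios cover counting error only. The study's methods give independent biological samples, but the labels of most tissues do not say which embryo a library came from (those of the lungs hold a litter and embryo code), and p-values measure the spread between these libraries.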

Additional observations from a re-analysis of the deposited data

Results flagged for a closer look

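In the 4 homozygous B2 hearts, Dlx3 was at 3.07 CPM in A58 and between 0.381 and 0.721 CPM in the other 3, a gap large for a group of this size. A58 also held Prrx1 at 45.3 CPM and Alx1 at 13.1 CPM, the highest of any heart but A21, and its surface ectoderm list summed to 536.8 CPM, the highest of the hearts. Of 28 combinations of gene and group looked at, this was the only one with such a value, and chance gives about 1 in 20. The homozygous B5 hearts, with A21, and the brain and gut libraries were not among the groups looked at.

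In B3, the homozygous and wild-type values of Dlx2 overlapped neither in face nor in heart and differed in opposite directions (log2 fold change 0.0707 in face and -2.30 in heart). In B4 the same held for gut against midbrain in Dlx1 (-0.74 and 2.58), Dlx2 (-0.97 and 3.03) and Dlx5 (-2.28 and 1.93). None of these values was called, the B4 midbrain values include A39 with its Emx2 of 29.3 CPM, and the differences between tissues were not tested. Such opposite directions were looked for in 24 combinations of gene and line. Of the 62 genotype tests of Dlx genes, 25 had groups that did not overlap, and the share over all genes is not given here.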

How the results depend on the processing

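Between genotypes, 0 of the 6 Dlx genes were called in any comparison, and this changed as follows. Without the filter on low counts 1 was called in B6 face, 3 in B7 face and 2 in B8 neural tube, and 1 differed among wild-type faces of the lines. DESeq2 called 1 in B3 heart and 1 in B7 face, and the joint fit 3 in B5 heart. Against the B5 wild-type hearts alone 2 were called in B6 heart and 1 in B7 heart. Leaving out 1 library gave 0 in 9 of the comparisons. In the others, calls came only where 1 library was left in a group, which is then assumed to vary like the other group. In B3 heart this was without wild-type A14. In B4 midbrain, B5 heart, B7 face and B8 neural tube it was without homozygous A37, A22, A1 and A35 in turn. Genes other than the Dlx genes were called in each of these fits as well. The shares of all genes called without the filter, in the joint fit and against the B5 hearts alone are not given here. The calls under these settings therefore cannot be read as particular to the Dlx genes. Of the 62 log2 fold changes between genotypes, 22 changed direction under at least 1 alternative (33 of 604 values), and none of these 22 had an unadjusted edgeR p under 0.05. The 15 with such a p kept theirs.

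Between tissues, leaving out 1 library gave 2 to 4 genes called between face and forebrain, 1 to 4 between forebrain and midbrain, 3 to 4 between forebrain and neural tube and 0 to 1 between midbrain and neural tube. With homozygous libraries and genotype in the model, 0 were called between forebrain and midbrain. Without A21 and A39, an alternative chosen after the data had been seen, 3 were called between midbrain and neural tube. The log2 fold change of Dlx1 between face and forebrain became 0.0517 and 0.10 under these settings and ran from -0.46 to 0.39 when 1 library was left out; that of Dlx2 between midbrain and neural tube became 1.88 and 0.73 and ran from -2.52 to 0.60. Leaving out 1 library, Dlx1 and Dlx5 in that contrast ran from -3.46 to 1.67 and from -0.44 to 1.25. The cause of these changes was not tested.

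With both genotypes the Dlx1 to Dlx2 difference from the face passed the threshold in forebrain (0.54), neural tube (1.31), lung (0.54) and gut (0.86), and Dlx6 to Dlx5 in forebrain (0.45). It did not pass for Dlx1 to Dlx2 in midbrain (0.077, permutation adjusted p = 0.513) or for Dlx6 to Dlx5 in midbrain (-0.09, adjusted p = 0.599) and heart (-0.29, adjusted p = 0.340). These rest on 3 midbrains, A39 among them, and on 3 hearts, A21 among them. With at least 50 counts the heart difference was 1.155 and no longer passed, with 2 hearts left, and the lung difference was -0.0682. Correlated pairs over faces numbered 3, 5 within lines and 1 without the 2 farthest faces. In the B2 lung, where the labels hold a litter code, 0 Dlx genes were called with the litter code or with sex in the model. No paired analysis was possible because, in the other comparisons, the libraries carry codes and no replicate numbers shared between groups.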
